A study of Rattus norvegicus with 6 samples.

Results

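Cyclin-dependent kinase (Cdk) inhibitors and D cyclins act on the same step of the cell cycle from opposite sides. The 10 rat genes described are the Cip/Kip inhibitors Cdkn1a, Cdkn1b and Cdkn1c, the Ink4 inhibitors Cdkn2a, Cdkn2b, Cdkn2c and Cdkn2d, and the D cyclins Ccnd1, Ccnd2 and Ccnd3. They were chosen by name, as 10 of the 14217 genes on the array, and were read by 16 of the 31042 probe sets tested, a probe set being a group of short probes along a transcript. Every probe set with 1 of these symbols alone was used, and 0 probe sets that carry several symbols hold one of them. The choice was made with the lower value of Cdkn1a and other results of these arrays known, so the differences of the 10 genes between the groups are given as a description, with errors and without a test.

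Total RNA came from the prelimbic cortex (PL), a part of the medial prefrontal cortex, of young male Sprague Dawley rats, and was hybridized as biotin-labelled cRNA to Affymetrix rat genome arrays. In the SNI group (n = 3) the tibial and common peroneal branches of the left sciatic nerve were cut and the sural nerve was spared, which is a model of chronic neuropathic pain. In the control group (n = 3) the same nerves were laid open and left uncut, so that all 6 samples share the anesthesia and the incision. Tissue of the PL on the side opposite to the injury was taken on day 14. The sources do not say that each sample is 1 rat, so the errors and p-values given cover only how these samples differ, part of which may be technical.

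D cyclins bind Cdk4 and Cdk6, and the complexes phosphorylate the retinoblastoma protein, which then releases the E2F factors that drive the genes of DNA replication. Ink4 proteins bind Cdk4 and Cdk6 directly and keep the D cyclins off them. Cip/Kip proteins bind cyclin and kinase together, block the Cdk2 complexes, and help to assemble the complexes of D cyclins. Neurons of the adult cortex have left the cell cycle, and the cells that still divide there are mainly glia. Cdkn1a is the best known target of the tumor suppressor p53 and is also induced by stress without p53.

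Promoter stretches of Cdkn1a and Cdkn2d are shown because these inhibitors had the most clearly separated groups on a probe set, and the 2 stretches differ in what they hold. Of the 10 genes, 7 matched the RefSeq promoter table (build GRCr8), and Cdkn1c, Ccnd1 and Ccnd2 were not among them. The 250 bases before the start of each gene were searched on both strands. In the Cdkn1a sequence (chr20:7150682-7150931, plus strand) the capitals mark a p53 half-site joined to a second one with 1 mismatch, whose first base lies 201 bases before the start. Such a pair was found in 18 of 27457 promoters (0.0656%), and a half-site alone in 6.56%. In the Cdkn2d sequence (chr8:28110810-28111059, minus strand) the capitals mark 5 copies of GGGCGG, the GC box of the factor Sp1, found at least once in 32.4% of promoters. These matches are letters in a window and not shown binding.
Cdkn1a: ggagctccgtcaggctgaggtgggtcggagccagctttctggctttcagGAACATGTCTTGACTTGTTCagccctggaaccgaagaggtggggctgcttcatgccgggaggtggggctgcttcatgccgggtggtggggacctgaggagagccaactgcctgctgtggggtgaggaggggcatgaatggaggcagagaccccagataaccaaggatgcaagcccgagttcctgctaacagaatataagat
Cdkn2d: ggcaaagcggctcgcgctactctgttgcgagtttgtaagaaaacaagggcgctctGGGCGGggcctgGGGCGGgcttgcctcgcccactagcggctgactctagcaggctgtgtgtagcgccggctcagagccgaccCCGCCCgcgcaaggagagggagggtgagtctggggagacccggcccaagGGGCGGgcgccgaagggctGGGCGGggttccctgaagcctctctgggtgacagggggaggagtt
The Cdkn1a window held 0 GC boxes within its 250 bases. For each gene 1 annotated start was used, so sites at other starts or farther away were not searched. The windows of Cdkn1b, Cdkn2a and Cdkn2c held 1 GC box each, that of Ccnd3 held 2 and that of Cdkn2b held 3. A p53 half-site alone was also found before Cdkn2c and Cdkn2d, 1 in each. The cyclic AMP response element TGACGTCA, which is in 1.7% of promoters, was found once, before Cdkn2b. The TATA box TATAAA, the E-box CACGTG and the FoxO site GTAAACA, in 13.1%, 5.79% and 3.25% of promoters, were found before 0 of the 7 genes.

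The deposited values are log2 signals from which, probe set by probe set, the median of the 6 samples had been taken away, so that 0 is the middle of the 6 samples and not an absent transcript. A value of 0.30 is 0.30 log2 units above that middle, and no level of one gene can be set against that of another. The centring also removes any view of whether a transcript was detected, and the dissected region could not be checked by the level of its markers. As a consequence, wherever the groups are fully separated the highest value of the lower group and the lowest value of the higher group are mirror images around 0. The number of arrays limits the precision. In whole tissue, fewer cells of a type and less RNA per cell cannot be told apart.

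The arrays differed in ways that touch these genes. The 18 hybridization controls, which are RNAs added at known amounts during the assay, averaged 0.19, 0.054 and 0.097 in the SNI samples 1, 2 and 3, against −0.047, −0.20 and −0.22 in control samples 1, 2 and 3, and did not overlap. On a principal component holding 35.8% of the variance, the largest one, the 3 SNI samples lay between −11.3 and −9.81, beside control sample 2 at −6.18 and far from control samples 1 and 3 at 21.9 and 16.04. The median SD of a probe set was 0.0673 among SNI samples and 0.107 among control samples. Control samples had the larger SD on 12 of the 16 probe sets, against 70.1% of all probe sets.

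Of the 16 probe sets, 4 were higher in every SNI sample than in every control sample, 3 were lower and 9 overlapped. Over all 31042 probe sets, 8.35% were higher without overlap and 11.2% were lower. The 4 higher ones all belong to Ccnd1 and Ccnd2, and the 3 lower ones to Cdkn1a, Cdkn2a and Cdkn2d. A linear difference over 1.5-fold was seen on 1 of the 16 probe sets, for Cdkn1a, and on 0.435% of all probe sets. As means over their probe sets, 2 of the 10 genes were higher without overlap, 3 were lower and 5 overlapped, against 6.39% and 13.7% of all genes. Since Cdkn1a was selected on this contrast, nothing is read from these counts.

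**Figure D1:**
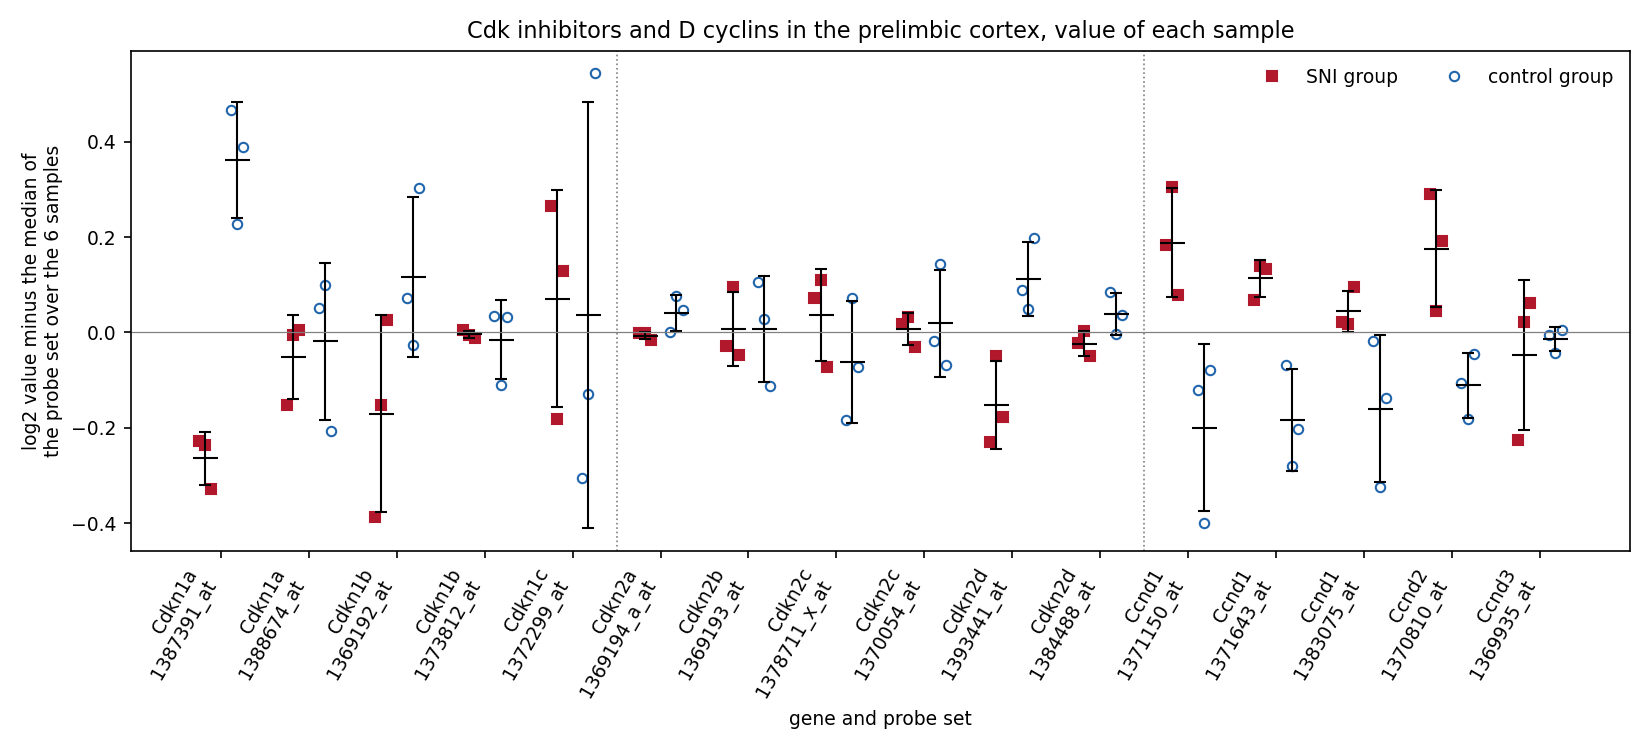
Centred log2 value (vertical axis) of the 16 probe sets of the 10 genes, with SNI samples as filled squares and control samples as open circles. Horizontal lines and bars give the mean and SD of 3 samples, and dotted lines divide Cip/Kip inhibitors, Ink4 inhibitors and D cyclins. The groups are farthest apart for the first probe set of Cdkn1a (SNI −0.33 to −0.23, control 0.23 to 0.47).

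Among the Cip/Kip inhibitors, Cdkn1a stood apart on 1 of its 2 probe sets. Cdkn1a encodes Cip1, which halts the cycle after DNA damage and other stress and also acts outside the nucleus in differentiating neurons. Probe set 1387391_at was at −0.23, −0.24 and −0.33 in the SNI samples, against 0.47, 0.23 and 0.39 in control samples. The SNI samples lay close together, and every one was below every control sample. The means were −0.26 ± 0.056 in the SNI group, against 0.36 ± 0.12 in the control group (SD, n = 3 each), a difference of −0.63 (SE 0.078, 95% confidence interval −0.80 to −0.45), which is 1.54-fold lower. Only 0.106% of all probe sets had a lower difference. With any 1 sample left out it stayed between −0.69 and −0.57.

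The other Cdkn1a probe set did not show this. Probe set 1388674_at was at −0.15, −0.0044 and 0.0044 in the SNI samples, against 0.051, 0.099 and −0.21 in control samples. The groups overlapped, with control sample 3 the lowest of all 6 here although it was the second highest on the first probe set. Its difference was −0.032 (SE 0.094, 95% confidence interval −0.25 to 0.18), an interval that does not reach the value of the first probe set. The 2 differences of Cdkn1a lie 0.59 apart, the widest gap among the 5 genes with several probe sets, which was 0.11 to 0.30 for the others. Which part of the transcript each probe set reads was not analysed here. The mean of both was −0.16 ± 0.035 in the SNI group, against 0.17 ± 0.084 in the control group, a difference of −0.33 (SE 0.061, 95% confidence interval −0.47 to −0.19), and 0.985% of genes had a lower one.

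Cdkn1b, which encodes Kip1, the inhibitor that holds resting cells and neurons out of the cycle, overlapped on both of its probe sets. Probe set 1369192_at was at −0.39, −0.15 and 0.026 in the SNI samples, against 0.073, −0.026 and 0.30 in control samples. SNI sample 1 was the lowest and control sample 3 the highest, and SNI sample 3 lay among the control samples. The difference was −0.29 (SE 0.12, 95% confidence interval −0.57 to −0.0068), or −0.18 without SNI sample 1 and 0.014 (SE 0.26) with the mean of the hybridization controls as a covariate. Probe set 1373812_at was at 0.0044, −0.0044 and −0.012 in the SNI samples, against 0.034, −0.11 and 0.032 in control samples, with a difference of 0.011 (SE 0.065). The gene mean differed by −0.14 (SE 0.080), and by −0.086 without SNI sample 1 and −0.080 without control sample 3.

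Cdkn1c encodes Kip2, an imprinted inhibitor expressed from the maternal allele and known for its part in development. It varied most among the samples of a group of all 10 genes. Its single probe set was at 0.27, −0.18 and 0.13 in the SNI samples, against −0.30, −0.13 and 0.54 in control samples. Control samples were both the lowest and the highest, and the groups overlapped fully. The means were 0.071 ± 0.23 in the SNI group, against 0.037 ± 0.45 in the control group (SD, n = 3 each), a difference of 0.034 (SE 0.21, 95% confidence interval −0.45 to 0.52). The sign turned without SNI sample 1 (−0.063), without control sample 1 (−0.14) and without control sample 2 (−0.048), and the difference was 0.29 (SE 0.13) without control sample 3.

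The order of the samples for Cdkn1c was that of the mean of 12 markers of pericytes, vascular smooth muscle and meninges. This mean was 0.20, −0.17 and 0.076 in the SNI samples, against −0.22, −0.13 and 0.59 in control samples. Over the 6 samples Pearson's r was 0.984 (exact permutation p 0.00139, two-sided) and Spearman's rho was 1 (exact permutation p 0.00278). The relation was noticed after the values had been seen, as 1 of 100 relations between a gene and a marker list, over which the Benjamini-Hochberg adjusted values were 0.0463 and 0.0694. Without SNI sample 1 and control sample 3, the 2 samples farthest from the median, r was 0.989. The groups hold 3 samples each, too few for a value within each group. Of the 100 relations, those of Cdkn1a with the striatum list and Ccnd2 with the list of oligodendrocyte precursors had the same adjusted values. In both the SNI and control samples form separate clusters, as they do for Cdkn2d and the microglia list, so no pooled r is given and such a relation cannot be told apart from the difference between the groups. Among the genes with overlapping groups, Cdkn2b ran against the list of pericytes, smooth muscle and meninges (r −0.924, exact permutation p 0.00417, adjusted 0.0833, and rho −0.943, exact permutation p 0.0167, adjusted 0.167). The list mean is carried by collagen and muscle genes in control sample 3, where Col3a1 was at 2.06, Col1a2 at 1.88 and Tagln at 1.14, and Col1a2 was at 0.85 in SNI sample 1 and −0.87 in SNI sample 2. Pdgfrb and Kcnj8, markers of pericytes, were at −0.018 and −0.017 in control sample 3. Whether the dissected samples held unequal amounts of vessel wall or meninges was not tested.

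**Figure D2:**
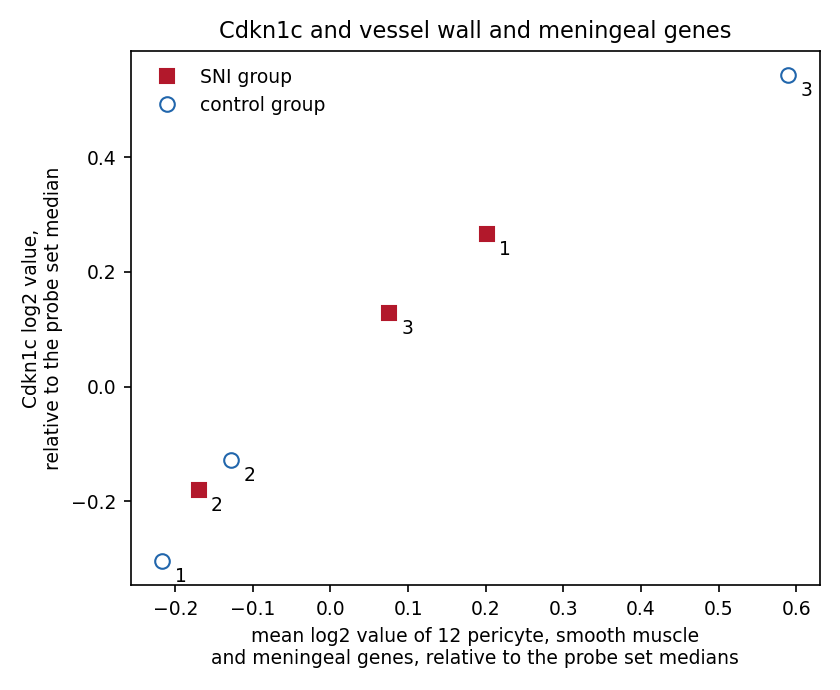
Cdkn1c (vertical axis) against the mean of 12 pericyte, smooth muscle and meningeal markers (horizontal axis), both as centred log2 values, with 1 point for each of the 6 samples and the sample number beside it. Filled squares are SNI samples and open circles control samples, which are mixed along the line up to control sample 3 at 0.59 and 0.54.

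Among the Ink4 inhibitors, Cdkn2d was lower in the SNI group and the other genes lay near 0. Cdkn2d encodes the Ink4d protein, one of the Ink4 inhibitors that neurons of the mature mouse brain keep. Probe set 1393441_at was at −0.23, −0.049 and −0.18 in the SNI samples, against 0.089, 0.049 and 0.20 in control samples. All SNI samples were below all control samples, with samples 2 of both groups nearest to each other. The means were −0.15 ± 0.093 in the SNI group, against 0.11 ± 0.077 in the control group, a difference of −0.26 (SE 0.074, 95% confidence interval −0.43 to −0.094). On probe set 1384488_at, at −0.023, 0.0031 and −0.050 in the SNI samples, against 0.084, −0.0031 and 0.037 in control samples, the samples 2 of both groups changed places and the difference was −0.063 (SE 0.059). The gene mean was −0.088 ± 0.056 in the SNI group, against 0.076 ± 0.048 in the control group, and differed by −0.16 (SE 0.057, 95% confidence interval −0.30 to −0.031) without overlap.

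Cdkn2a, which encodes the Ink4a protein and, from another reading frame, the p53 activator Arf, was at −0.0017, −0.0017 and −0.016 in the SNI samples, against 0.0017, 0.076 and 0.046 in control samples. It counts as lower without overlap, but the groups nearly touch, and its difference of −0.048 (SE 0.057) was smaller than its error. Cdkn2b, which encodes Ink4b, an inhibitor induced by transforming growth factor beta, was at −0.028, 0.096 and −0.048 in the SNI samples, against 0.11, 0.028 and −0.11 in control samples. It overlapped, with a difference of −0.00040 (SE 0.078, 95% confidence interval −0.18 to 0.18). Cdkn2c, which encodes Ink4c, an inhibitor of progenitor division, was at 0.072, 0.11 and −0.072 in the SNI samples, against −0.18, 0.072 and −0.072 in control samples on probe set 1378711_x_at, a difference of 0.098 (SE 0.085). On probe set 1370054_at it was at 0.018, 0.033 and −0.030 in the SNI samples, against −0.018, 0.14 and −0.069 in control samples, a difference of −0.012 (SE 0.073). The probe sets of Cdkn2c differed in sign, and both overlapped.

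The D cyclins lay on the other side, with Ccnd1 and Ccnd2 higher in the SNI group and Ccnd3 overlapping. Cyclin D1, the product of Ccnd1, couples growth signals to the start of the cycle. Probe set 1371150_at was at 0.18, 0.30 and 0.078 in the SNI samples, against −0.12, −0.40 and −0.078 in control samples, a difference of 0.39 (SE 0.10, 95% confidence interval 0.16 to 0.62). Probe set 1371643_at was at 0.068, 0.14 and 0.13 in the SNI samples, against −0.068, −0.28 and −0.20 in control samples, a difference of 0.30 (SE 0.072, 95% confidence interval 0.13 to 0.46). Probe set 1383075_at was at 0.021, 0.018 and 0.094 in the SNI samples, against −0.018, −0.32 and −0.14 in control samples, a difference of 0.20 (SE 0.085, 95% confidence interval 0.0070 to 0.40), or 0.12 (SE 0.067) without control sample 2. On all 3 probe sets each SNI sample was above each control sample, and control sample 2 was the lowest. The gene mean was 0.12 ± 0.034 in the SNI group, against −0.18 ± 0.14 in the control group, a difference of 0.30 (SE 0.076, 95% confidence interval 0.12 to 0.47), or 0.22 without control sample 2, and 99.3% of genes had a lower one. Ccnd1 was the only one of the 5 genes with several probe sets whose groups were separated on each.

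Ccnd2, whose cyclin D2 serves the division of neural progenitors in the adult mouse hippocampus, was at 0.29, 0.046 and 0.19 in the SNI samples, against −0.11, −0.18 and −0.046 in control samples. The groups were separate, with SNI sample 2 and control sample 3 nearest to each other. The means were 0.18 ± 0.12 in the SNI group, against −0.11 ± 0.068 in the control group, a difference of 0.29 (SE 0.079, 95% confidence interval 0.10 to 0.47). Ccnd3, the remaining D cyclin and the main one of maturing blood cells, was at −0.23, 0.023 and 0.062 in the SNI samples, against −0.0058, −0.043 and 0.0058 in control samples. SNI sample 1 was the lowest and the other 2 SNI samples the highest, so the groups overlapped. The difference was −0.033 (SE 0.085), and 0.057 without SNI sample 1.

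The hybridization controls moved with the groups, and their mean as a covariate of each array changed these values. With it the difference of the Cdkn1a probe set 1387391_at was −0.80 (SE 0.17), that of Ccnd1 0.18 (SE 0.17) and that of Ccnd2 0.14 (SE 0.16). The errors of the adjusted values were about as large as the values for both D cyclins. The Ccnd1 probe set 1383075_at was at 0.0064 (SE 0.18), and Cdkn1c at 0.36 (SE 0.48). Cdkn2d was then at −0.11 (SE 0.13). The part of the arrays' own differences in these results was not tested.

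**Figure D3:**
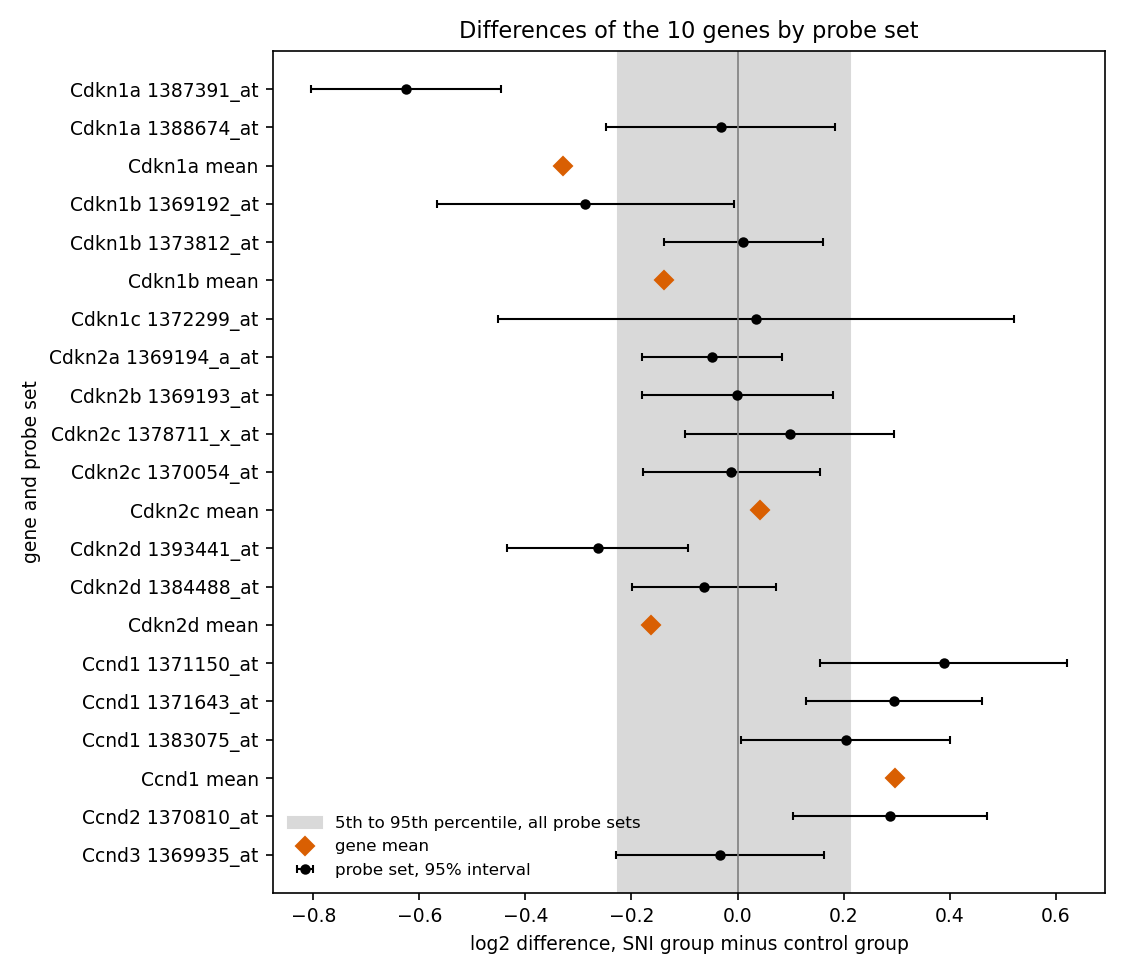
Log2 difference, SNI group minus control group (horizontal axis), of each of the 16 probe sets as a point with its 95% confidence interval, and of the mean of each gene with several probe sets as a diamond. The grey band holds the 5th to 95th percentile of all probe sets (−0.23 to 0.21). Points outside it belong to Cdkn1a, Cdkn1b and Cdkn2d on the left and Ccnd1 and Ccnd2 on the right.

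By family, the median difference of the gene means was −0.14 for the 3 Cip/Kip inhibitors, −0.024 for the 4 Ink4 inhibitors and 0.29 for the 3 D cyclins, beside −0.011 for all genes. A median of 3 genes is the value of 1 gene, here Cdkn1b, whose groups overlapped, and Ccnd2. Cdkn1c, at 0.034, and Ccnd3, at −0.033, had the opposite sign to the median of their family. Of the 5 Cip/Kip probe sets 1 was lower without overlap, of the 6 Ink4 probe sets 2 were lower, and of the 5 D cyclin probe sets 4 were higher, beside 11.2% of all probe sets lower and 8.35% higher. The mean of the D cyclins was 0.052, 0.074 and 0.12 in the SNI samples, against −0.060, −0.19 and −0.060 in control samples. No sample of one group reached the values of the other, but the choice of genes was not blind to them. Within each inhibitor family 1 gene lay apart from its relatives on a probe set and the rest overlapped or nearly touched.

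The genes around the 10 were read from 7 lists with 144 different genes, 123 of them measured, that hold none of the 10. In limma's fit over all 14217 genes 0 of the 123 passed an adjusted p of 0.05, and 0% of all genes did. At an unadjusted p under 0.05, 4 of the 123 were higher and 13 lower in the SNI group, beside 3.96% of all genes higher and 9.19% lower. The median difference of the 123 was −0.0099.

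The kinases and their partners held the most genes that were lower at an unadjusted p under 0.05. Of 11 measured genes of this list 0 were higher and 5 lower, with a median of −0.087. Lowest was Cdk5r1, the neuronal activator of Cdk5, at −0.15, −0.16 and −0.085 in the SNI samples, against 0.15, 0.085 and 0.21 in control samples (difference −0.28, SE 0.057, limma adjusted p = 0.189). The 3 subunits of the Cdk-activating kinase, which also serves transcription, were all lower without overlap, beside 13.7% of all genes. Mnat1, its assembly factor, differed by −0.21 (SE 0.054, adjusted p = 0.216), Cdk7, its kinase, by −0.22 (SE 0.068, adjusted p = 0.256) and Ccnh, its cyclin, by −0.19 (SE 0.062, adjusted p = 0.282). Cdk4 and Cdk6, the kinases that D cyclins and Ink4 proteins bind, were named for their role after their values were seen. Cdk4 differed by −0.030 (SE 0.056) and Cdk6 by −0.0023 (SE 0.055). Cdk2, whose complexes the Cip/Kip proteins block, differed by −0.087 (SE 0.081) and overlapped.

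Downstream of the D cyclins, few genes had a small p. Of 12 Rb and E2F genes 0 were past an unadjusted p of 0.05, with a median of −0.047. The smallest p among them was that of E2f4, a repressor of resting cells, at −0.10 (SE 0.060, limma adjusted p = 0.523), and Rb1, named for its role, was at −0.0013 (SE 0.057). Of 9 other cyclins 0 were past it, with a median of −0.079, and Ccni, an atypical cyclin, was nearest at 0.12 (SE 0.053, limma adjusted p = 0.397). Of 30 measured genes of proliferation and DNA replication 1 was higher and 1 lower, with a median of −0.0093. Pcna, the sliding clamp of DNA polymerase, which Cip1 binds, was at −0.097, −0.065 and −0.092 in the SNI samples, against 0.10, 0.065 and 0.21 in control samples (difference −0.21, SE 0.058, adjusted p = 0.227). Kif20a, a motor of cell division, was higher by 0.18 (SE 0.057, adjusted p = 0.249). Mki67, the common marker of dividing cells, differed by 0.042 (SE 0.054) and overlapped.

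Of 31 listed genes of p53 and its targets other than Cdkn1a, 24 were measured, with 1 higher, 1 lower and a median of 0.0077. The gene of p53 itself was not among the 24 measured, so its own value is not given. Ddit4, an inhibitor of growth signalling by mTOR that p53, hypoxia and glucocorticoids induce, was at 0.25, 0.12 and 0.20 in the SNI samples, against −0.36, −0.28 and −0.12 in control samples (difference 0.44, SE 0.075, adjusted p = 0.143), opposite in sign to Cdkn1a. Ppm1d, a phosphatase that ends the p53 response, differed by −0.15 (SE 0.061, adjusted p = 0.335). Mdm2, the p53 target that degrades p53, was at −0.0033 (SE 0.073).

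Among 25 measured transcriptional regulators of the 10 genes 2 were higher and 4 lower at an unadjusted p under 0.05, with a median of 0.061. Klf6, a zinc finger factor that can induce Cdkn1a without p53, was at −0.10, −0.21 and −0.19 in the SNI samples, against 0.34, 0.11 and 0.14 in control samples (difference −0.36, SE 0.075, adjusted p = 0.189). It was lower in every SNI sample than in every control sample, beside 13.7% of all genes, and a link to Cdkn1a was not tested. Of the 25 genes of this list, 16 had a positive difference and 9 a negative one. Hes1, a Notch target that represses Cdkn1b and Cdkn1c in other tissues, was at 0.044, 0.57 and 0.28 in the SNI samples, against −0.28, −0.34 and −0.044 in control samples (difference 0.52, SE 0.13, adjusted p = 0.216). Max, the partner of Myc, differed by −0.22 (SE 0.060, adjusted p = 0.220), and Smad2, a carrier of transforming growth factor beta signals, by −0.30 (SE 0.083, adjusted p = 0.224). Of 17 measured regulators of protein stability 0 were higher and 2 lower, with a median of −0.038. These were Skp1, a part of the ligase that degrades Kip1, at −0.15 (SE 0.053, adjusted p = 0.305), and Cul4b, the scaffold of another ligase, at −0.17 (SE 0.064, adjusted p = 0.321).

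**Figure D4:**
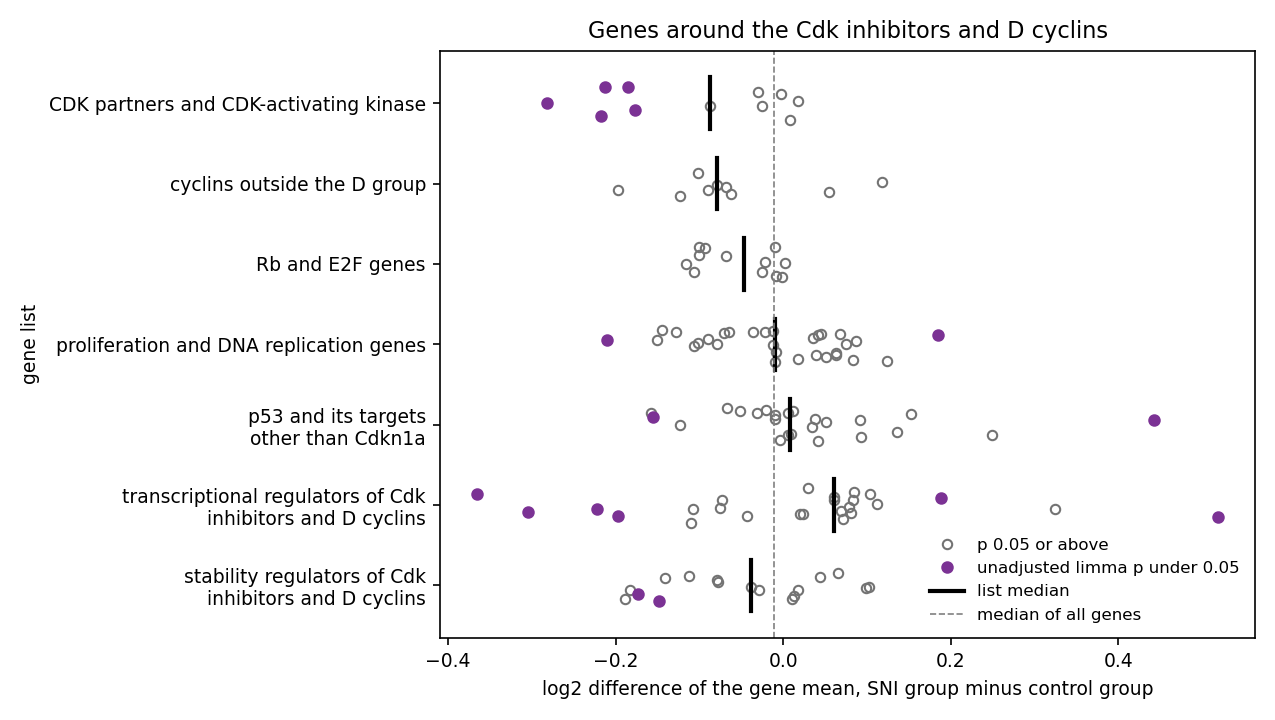
Log2 difference of the gene mean, SNI group minus control group (horizontal axis), for the 123 measured genes of 7 lists around the Cdk inhibitors and D cyclins. Each list shows 1 point for each of its genes, so a gene in several lists is drawn in each of them. Filled points have an unadjusted limma p under 0.05, thick lines are list medians and the dashed line is the median of all genes (−0.011). The kinases and their partners hold 5 filled points, all on the left.

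Markers of microglia and of oligodendrocyte precursors lay in the direction of Ccnd1 and Ccnd2. Of 14 measured microglia markers 9 were higher and 0 lower at an unadjusted p under 0.05, with a median of 0.22, and the list mean was 0.057 to 0.15 in SNI samples, against −0.14 to −0.069 in control samples. Of 8 measured markers of oligodendrocyte precursors 3 were higher and 0 lower, with a median of 0.13 and a list mean of 0.048 to 0.12 in SNI samples, against −0.092 to −0.056 in control samples. Of 12 neuron markers 1 was higher and 3 lower, with a median of −0.14 and a list mean of −0.11 to −0.0091 in SNI samples, against −0.0094 to 0.16 in control samples. In limma's fit over all genes 0 of the 93 measured markers of 10 cell types passed an adjusted p of 0.05, and 19 were higher and 7 lower at an unadjusted p under 0.05, beside 3.96% and 9.19% of all genes. Because of the centring it cannot be said which markers are at 0. The part of these cell types in the values of Ccnd1, Ccnd2, Cdkn1a and Cdkn2d was not tested.

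The other cell type lists held fewer genes past an unadjusted p of 0.05. Astrocytes had 1 higher of 9 (median 0.095), endothelium 2 higher of 9 (median 0.075), choroid plexus and ependyma 1 higher of 6 (median 0.055), and blood cells 2 higher and 1 lower of 7 (median 0.13). Myelinating oligodendrocytes had 1 lower of 9 (median −0.099), striatum 2 lower of 7 (median −0.16), and pericytes, smooth muscle and meninges 0 of 12 (median 0.014). The striatum list, which bears on how the cortex was cut out, averaged −0.056 to −0.038 in SNI samples, against 0.048 to 0.11 in control samples, in the direction of Cdkn1a and Cdkn2d. The order of the 6 samples in this list was that of the Cdkn1a gene mean, but not that of either Cdkn1a probe set. The list was lowest in SNI sample 1, 1387391_at in SNI sample 3 and 1388674_at in control sample 3. Since the list and the gene mean both have separate groups, a relation within the groups cannot be told apart from the difference between them.

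Over the 6 samples, the probe sets with 1 symbol whose values ran most like those of Cdkn1a 1387391_at, among 20825, were those of Rtf1, Nolc1, Nedd4, Leprotl1 and Vps33a, with Pearson's r of 0.996 to 0.997. All were lower in the SNI group, by −0.35 to −0.27 as differences. Like Cdkn1a 1387391_at, all had control sample 1 as the highest, control sample 3 next and control sample 2 nearest to the SNI samples. This shared order comes with their choice by r and is not a separate result. The 6 samples share their arrays and their division into groups, and separation of the groups by itself adds to the size of such an r.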

How the data were processed

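mRNA was measured in 3 SNI and 3 control samples of the rat PL. The authors corrected the array signals with RMA, then took log2 and quantile-normalized the arrays. Among the deposited log2 values every probe set also has a median of 0 (within 4.78e-07) across samples, a centring that, like the software versions, is not given in the sources used here. Of 31099 probe sets, 57 array controls were left out. Gene symbols came from the platform annotation, where 20826 probe sets had 1 symbol, 436 several and 9780 none. Gene means took all probe sets with 1 symbol.

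All fits used R 4.3.3 with limma 3.58.1 (lmFit, then eBayes, for the SNI minus the control group, two-sided and with no covariate) on all 31042 probe sets or all 14217 gene means, with Benjamini-Hochberg adjustment over each, and were tested on simulated data. Intervals at 95% confidence were taken from limma's moderated fit. Relations with marker lists used exact permutation over the samples in Python 3.11.15, and plots matplotlib 3.10.9. With 3 samples in each group no exact permutation of the groups reaches a p under 0.1, and none was used.

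The 10 genes and the lists (kinases and partners, other cyclins, Rb and E2F, proliferation, p53 targets, transcriptional and stability regulators, and 10 cell types) were chosen with earlier results of these data known. Of each pathway list the genes with the smallest p under 0.05 were named, at most 4, or the one with the smallest p where there was none. Other genes named for a role, and the markers named beside Cdkn1c, were picked after their values were seen. Alternatives tried were repeated quantile normalization, alignment of array medians, hybridization controls as a covariate, a replicate block, the median over probe sets, each probe set as its own member, robust variance estimates, the methods' t-test, other thresholds and each sample left out in turn.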

Additional observations from a re-analysis of the deposited data

How the results depend on the processing

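The sign of the gene mean was the same under all 11 alternatives for Cdkn1a, Cdkn1b, Cdkn2c, Cdkn2d, Ccnd1 and Ccnd2, under 10 for Cdkn2a, 9 for Ccnd3, 8 for Cdkn1c and 5 for Cdkn2b. Several of these alternatives could not change a sign, so the counts are a weak check. The replicate block leaves each difference as it is, and the median over probe sets equals the mean for every gene but Ccnd1. Leaving out a sample cannot turn the sign of a gene whose groups do not overlap. With the hybridization controls as a covariate the differences were −0.43 for Cdkn1a (−0.80 for 1387391_at), −0.023 for Cdkn1b, 0.36 for Cdkn1c, −0.10 for Cdkn2b, 0.15 for Cdkn2c, −0.11 for Cdkn2d, 0.18 for Ccnd1, 0.14 for Ccnd2 and 0.15 for Ccnd3, and that of Cdkn2a turned to 0.010. This covariate differs between the groups without overlap, and every error was larger with it. The cause of these shifts was not tested.

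At an adjusted p of 0.05 limma called 10 of all probe sets, 66 with quantile normalization repeated, 0 with the methods' t-test and 214 at an adjusted p under 0.10. With each sample left out the count was 0 to 35, with 0 without SNI sample 3, 1 without SNI sample 2 or control sample 3 and 35 without control sample 2. Of the pathway and marker genes 0 were called under every alternative. At an unadjusted p under 0.05 the 17 pathway genes became 10 with the hybridization covariate, 27 without control sample 2 and 27 with each probe set as its own member, and were 9 at 0.01. The 26 marker genes became 11 with the covariate, 41 without control sample 2 and 11 at 0.01.

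The replicate numbers share no stated animal or batch, and same-numbered samples correlated at 0.0085, −0.0098 and −0.069 in their deviations from the group means. With the replicate block 9 probe sets were called, 0 pathway or marker genes passed, 19 pathway genes had an unadjusted p under 0.05, and the differences of the 10 genes were as before (Cdkn1a −0.33, SE 0.071). The centring removes signal over background, so how far it limits a value cannot be given.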
